A study of Mus musculus with 12 samples.

Results

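The ADAMTS genes that encode aggrecanases and related proteoglycan-cleaving proteinases were followed across cultured mouse femoral head cartilage that was left untreated or was given IL-1α or retinoic acid. They were Adamts1, Adamts4, Adamts5, Adamts8, Adamts9, Adamts15 and Adamts20. These 7 genes were chosen by name, as every probe whose symbol in the deposited table equals one of them, and they had 13 of the 46632 probes of the array. The table holds 34509 gene symbols.

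All arrays came from TS-4/5Δcat mice, which carry in-frame deletions in Adamts4 and in Adamts5 that remove the exons for the catalytic domains. The untreated arrays carry both deletions too, and no wildtype array is among the 12 arrays analysed here. Femoral heads of mice aged 21 days were placed in culture with 4 hips to a well, for 24 h in DMEM with 10% FBS per the labels. They were then left untreated or treated for 3 days with 10 ng/ml IL-1-alpha or 10 uM retinoic acid. The study's methods give serum-free DMEM for the 3 days, untreated or treated, and mention no serum for these explants. Each treatment had 4 arrays, 2 in batch 1 and 2 in batch 2. Batch 1 held the line labelled Donut and batch 2 the line labelled Gertrude, so that batch and line cannot be told apart. The methods name 3 unpooled mice for each treatment and the labels triplicate treatments, fewer than the 4 arrays, and nothing ties an array to a mouse, so that p-values measure the spread between these arrays, which may be technical.

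ADAMTS proteins are secreted zinc metalloproteinases that are made with a prodomain, which furin-like convertases remove, and with thrombospondin motifs that bind them to the matrix. Aggrecan is the large proteoglycan that holds water in cartilage, where link proteins fix it to hyaluronan. ADAMTS-4 and ADAMTS-5 are its best known cleaving enzymes, and ADAMTS-1, ADAMTS-8, ADAMTS-9, ADAMTS-15 and ADAMTS-20 cleave aggrecan, versican or both. TIMP-3 is the main tissue inhibitor of these enzymes. IL-1α is an inflammatory cytokine, retinoic acid is a vitamin A derivative that acts through nuclear receptors, and both drive loss of aggrecan from cartilage in culture. The study compared them because they differ in the aggrecan cleavage they bring about in this genotype.

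Intensities were background-corrected, quantile-normalized and put on the log2 scale, and a probe counted as detected on an array when its detection p was under 0.05. The arrays detected between 13786 and 19485 probes, with 13786 to 14965 in batch 1 and 16732 to 19485 in batch 2. Arrays of the same treatment and batch correlated at r = 0.983 to 0.995 across probes, which are not independent replicates. The lowest detected signal of an array lay between 4.86 and 5.48 on the log2 scale. Retinoic acid raised 4 of 4 retinoid-responsive genes, Cyp26a1, Cyp26b1, Rarb and Dhrs3, where 18.6% of all genes were called higher. IL-1α raised Nos2 and Lcn2, where 15.1% were. Cyp26a1, Rarb and Dhrs3 passed the filter on detection only through the retinoic acid arrays and Nos2 only through the IL-1α arrays. Their calls could therefore only be rises. Saa3 did not pass the test with IL-1α (limma adjusted p = 0.373). Its IL-1α arrays, at 13.9 to 14.1, nevertheless all lay above its untreated arrays, at 12.5 to 13.7. Il6 had no probe that passed the filter. Of 8 cartilage markers 7 passed the filter, and their summed linear level was 62210 to 72430 untreated, 35260 to 46200 with IL-1α and 10150 to 15220 with retinoic acid. In whole tissue, fewer cells of a type and less RNA per cell cannot be told apart.

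The RefSeq genes of assembly GRCm38.p6 place these genes on 5 chromosomes. Adamts9, the longest, lies at chr6:92772699-92944450 and Adamts4 at chr1:171250129-171262267. Adamts15 at chr9:30899155-30922452 and Adamts8 at chr9:30942562-30963838 are neighbours separated by 20109 bases. Adamts1 at chr16:85793827-85803113 and Adamts5 at chr16:85858157-85901125 are separated by 55043 bases. Adamts20 lies at chr15:94268314-94432074. The array table gives no coordinates for its probes, so whether a probe of Adamts4 or Adamts5 lies inside the deleted exons was not tested, and their signal does not check the genotype.

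Promoter sequence was given for Adamts1, Adamts9 and Adamts20 in the RefSeq promoter table of GRCm38.p6. The 250 bases before the listed start site are shown for Adamts9 and Adamts1, 2 genes that rose with retinoic acid. The Adamts1 window directly precedes the gene interval, while the Adamts9 and Adamts20 windows lie inside theirs and so precede an internal start. Capitals mark the GC box GGGCGG, on either strand, and the TATA box TATAAA.
Adamts9, chr6:92943535-92943784, minus strand: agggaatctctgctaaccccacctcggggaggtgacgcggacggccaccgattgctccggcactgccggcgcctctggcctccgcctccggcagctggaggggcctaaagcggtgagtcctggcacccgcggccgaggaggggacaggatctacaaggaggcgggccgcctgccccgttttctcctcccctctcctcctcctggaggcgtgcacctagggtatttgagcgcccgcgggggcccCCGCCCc
Adamts1, chr16:85803114-85803363, minus strand: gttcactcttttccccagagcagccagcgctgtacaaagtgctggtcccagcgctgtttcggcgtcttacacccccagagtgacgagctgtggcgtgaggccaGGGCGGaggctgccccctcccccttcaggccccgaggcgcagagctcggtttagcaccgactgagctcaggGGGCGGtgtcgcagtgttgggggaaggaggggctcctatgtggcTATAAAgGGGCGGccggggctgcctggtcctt
The Adamts1 window held TATAAA with its first base 32 before the start, and 12.4% of the 32851 promoters hold those letters in either direction. The window of Adamts9 did not hold them. Adamts1 had 3 GC boxes and Adamts9 had 1, with GGGCGG present in 32.7% of promoters. Adamts9 had 22 CpG dinucleotides, more than 85.2% of promoters, and Adamts1 had 15, more than 72.7%. The half-site of nuclear receptors, AGGTCA, was searched on both strands and is in 14% of promoters, but the windows of Adamts1, Adamts9 and Adamts20 did not hold it. The AP-1 motif TGANTCA, in 6.75% of promoters, was not in these windows either. These are letters in a short window and say nothing of binding.

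Detection set which genes could be followed. Probes were kept for testing when detected on at least 4 of 12 arrays, which left 18200 probes for 14317 symbols. Of the 13 probes 4 were kept, 1 each for Adamts1, Adamts4, Adamts9 and Adamts15, and 9 were not. The probes of Adamts4 and Adamts15 and the kept Adamts9 probe were detected on 12 of 12 arrays. The kept Adamts1 probe was detected on 7. Adamts5, Adamts8 and Adamts20 had no kept probe and were left out of the limma test.

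**Figure D1:**
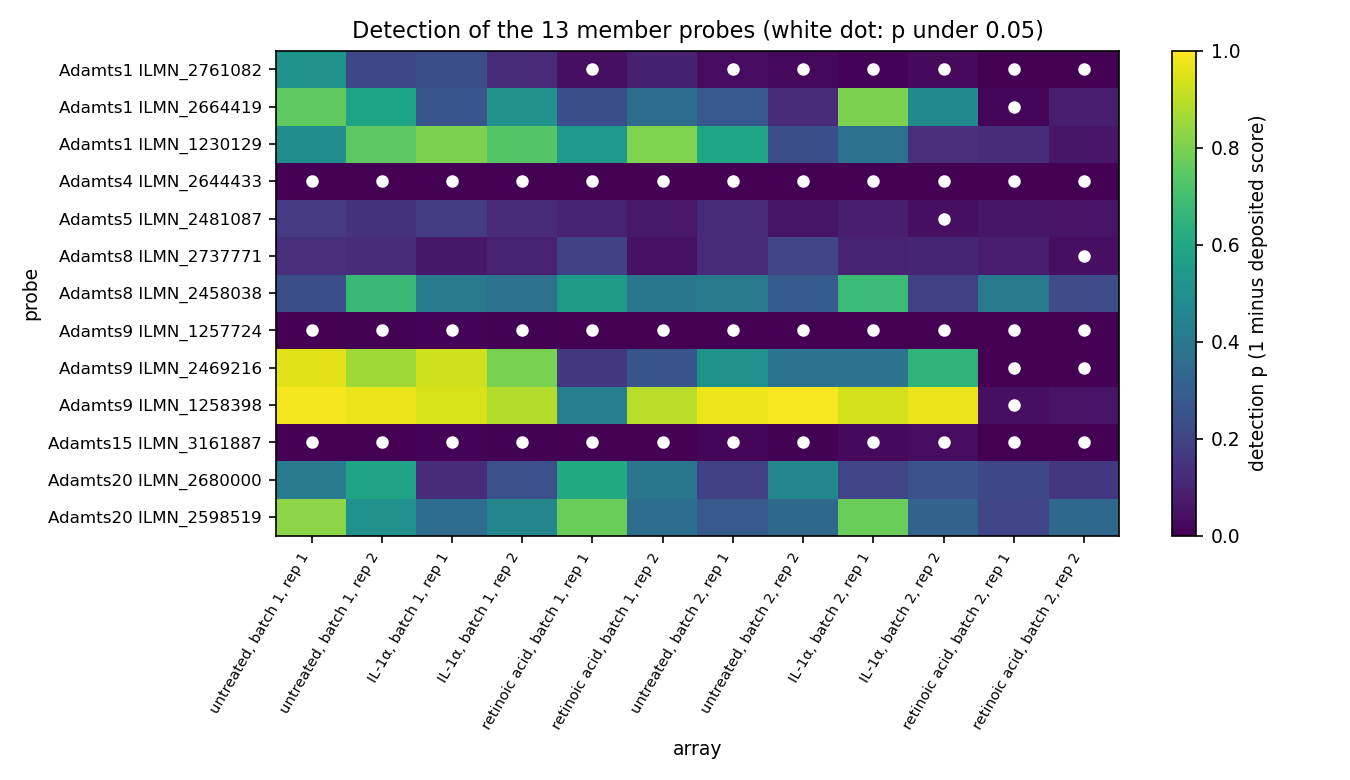
Detection p of the 13 probes (rows) on the 12 arrays (columns, grouped by batch and treatment). White dots mark p under 0.05. Only 3 probes carry a dot on every array, and the probes of Adamts20 carry none.

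Of the 4 genes with a kept probe, retinoic acid raised 3 over untreated (Adamts9, Adamts15 and Adamts1) and lowered 0. Over all genes tested, 18.6% were called higher with retinoic acid. IL-1α raised 0 of the 4 and lowered 1, Adamts15, where 15.1% of all genes were called higher and 15% lower. Retinoic acid exceeded IL-1α in 4 of 4, where 16.1% of all genes were called higher. The median log2 fold changes of the 4 genes were 1.38 for retinoic acid against untreated, -0.16 for IL-1α against untreated and 1.49 for retinoic acid against IL-1α. The medians over all genes were 0.01, 0.01 and -0.03. The comparisons share arrays, and these medians leave out the 3 genes without a kept probe.

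Adamts9 encodes a large, widely expressed proteinase that is essential for embryonic development in mice and is the closest relative of Adamts20. Its kept probe, ILMN_1257724, had log2 intensities on untreated arrays of 6.95 and 6.63 in batch 1 and 7.59 and 7.72 in batch 2. On IL-1α arrays they were 6.40 and 6.76, and 7.35 and 7.57. On retinoic acid arrays they were 10.71 and 10.66, and 11.45 and 11.75. Every retinoic acid array stood above every other array, while the IL-1α and untreated arrays overlapped. Retinoic acid raised Adamts9 over untreated by 3.92 on the log2 scale (standard error 0.12, limma adjusted p = 2.90e-10), a 15.1-fold difference. By this log2 fold change the probe ranked 9 of the 18200 kept probes. The difference was 3.89 in batch 1 and 3.94 in batch 2.

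IL-1α against untreated gave -0.20 for Adamts9, with a 95% interval of -0.47 to 0.06 (limma adjusted p = 0.236). Retinoic acid exceeded IL-1α by 4.12 (95% interval 3.86 to 4.39, limma adjusted p = 1.38e-10). In the exact two-sided permutation test of 4 arrays against 4, both retinoic acid comparisons gave p = 0.0286, the smallest the 70 arrangements allow. Over all genes, 18% had groups that did not overlap for retinoic acid against untreated and 18.9% for retinoic acid against IL-1α. On the deposited linear scale the same probe read 75.6 to 330.3 untreated, 88.7 to 257.4 with IL-1α and 1099.5 to 5239.3 with retinoic acid. The retinoic acid arrays therefore stood apart before normalization too.

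**Figure D2:**
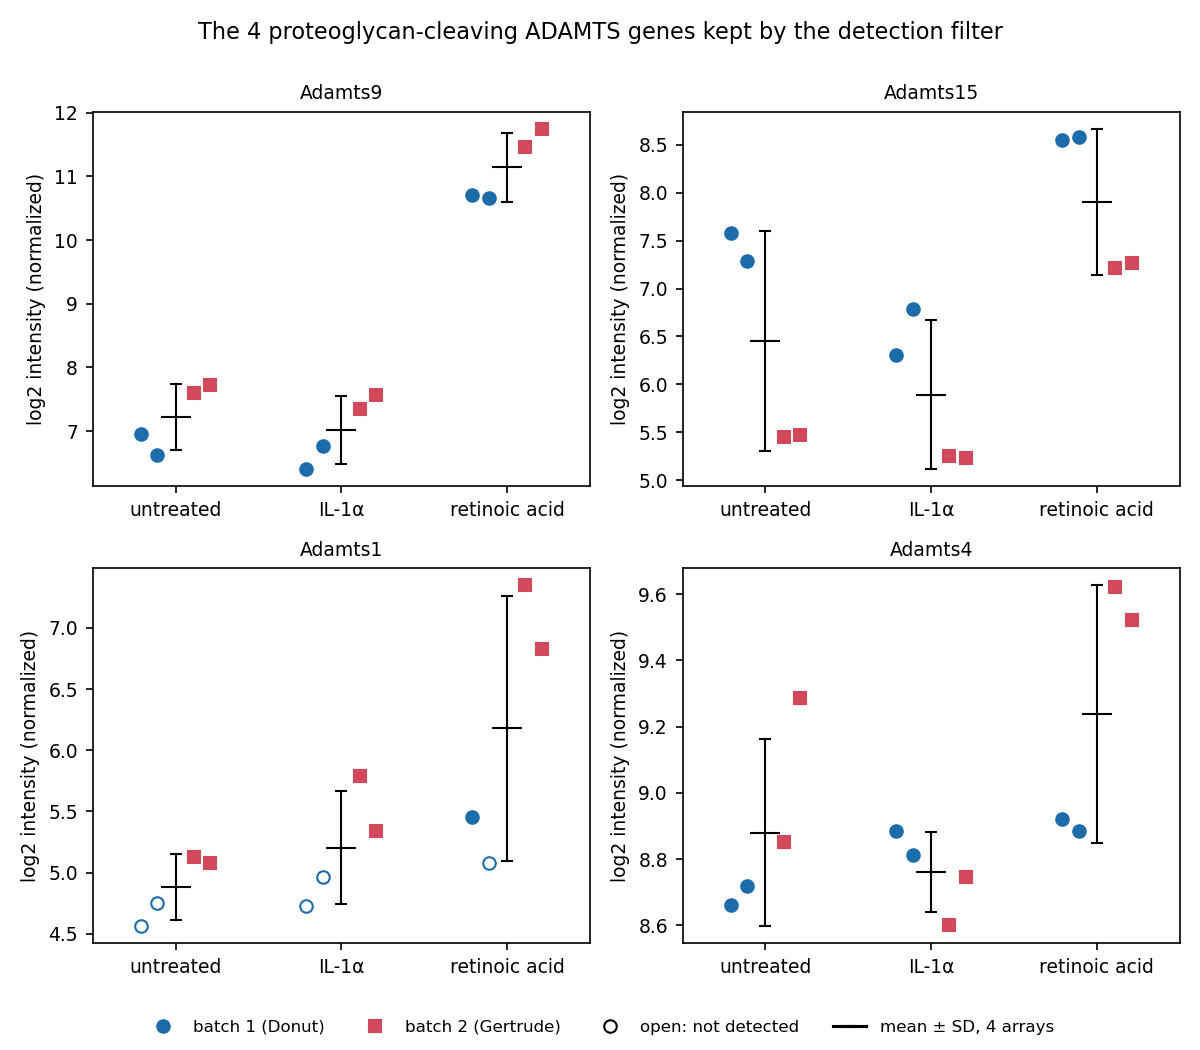
Log2 intensity of the kept probes of Adamts9, Adamts15, Adamts1 and Adamts4 by treatment, 1 point for each array, with the mean and SD of 4 arrays and a separate scale in each panel. Retinoic acid arrays of Adamts9 lie at 10.66 to 11.75, above all others, whereas batches separate Adamts15 and only batch 2 reaches 6.83 or more for Adamts1.

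The other Adamts9 probes were much closer to background. ILMN_2469216 was detected only on the retinoic acid arrays of batch 2, at 6.72 and 6.74. On the retinoic acid arrays of batch 1 it was at 4.84 and 4.70, undetected, and on the untreated and IL-1α arrays it was undetected at 4.45 to 4.59. Its retinoic acid arrays were all above its other arrays (exact two-sided permutation test, p = 0.0286 against each), but in batch 1 this order is among undetected values. Within batch 2 it was at least 3.42-fold higher with retinoic acid than untreated and at least 3.22-fold higher than with IL-1α. For each dim array such a bound takes the lowest detected signal, or the probe's own where that was higher, and compares their mean with that of the bright arrays. ILMN_1258398 was detected on 1 array, with retinoic acid in batch 2, at 5.06.

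A further probe, ILMN_1254543, is listed under the symbol 8430403M15Rik, an older name that RefSeq gives as a synonym of Adamts9, and was therefore outside the choice by symbol. None of the 8 untreated and IL-1α arrays detected it, at 4.49 to 4.67. On the retinoic acid arrays it was detected throughout, at 6.01 and 5.97 in batch 1 and 7.77 and 7.63 in batch 2. It was at least 3.31-fold higher with retinoic acid than untreated (limma adjusted p = 3.16e-05) and at least 3.02-fold higher than with IL-1α (limma adjusted p = 3.11e-05). This probe passed the filter on detection only through the retinoic acid arrays. Its calls could therefore only be rises and are no independent support for the rise of Adamts9. Within batch 1 the bounds were 1.63-fold and 1.44-fold, and within batch 2 they were 6.71-fold and 6.32-fold. All 4 probes read highest on the 2 retinoic acid arrays of batch 2, while in batch 1 ILMN_1258398 overlapped between retinoic acid and IL-1α. How far each lies from the end of the transcript is not given in the table.

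**Figure D3:**
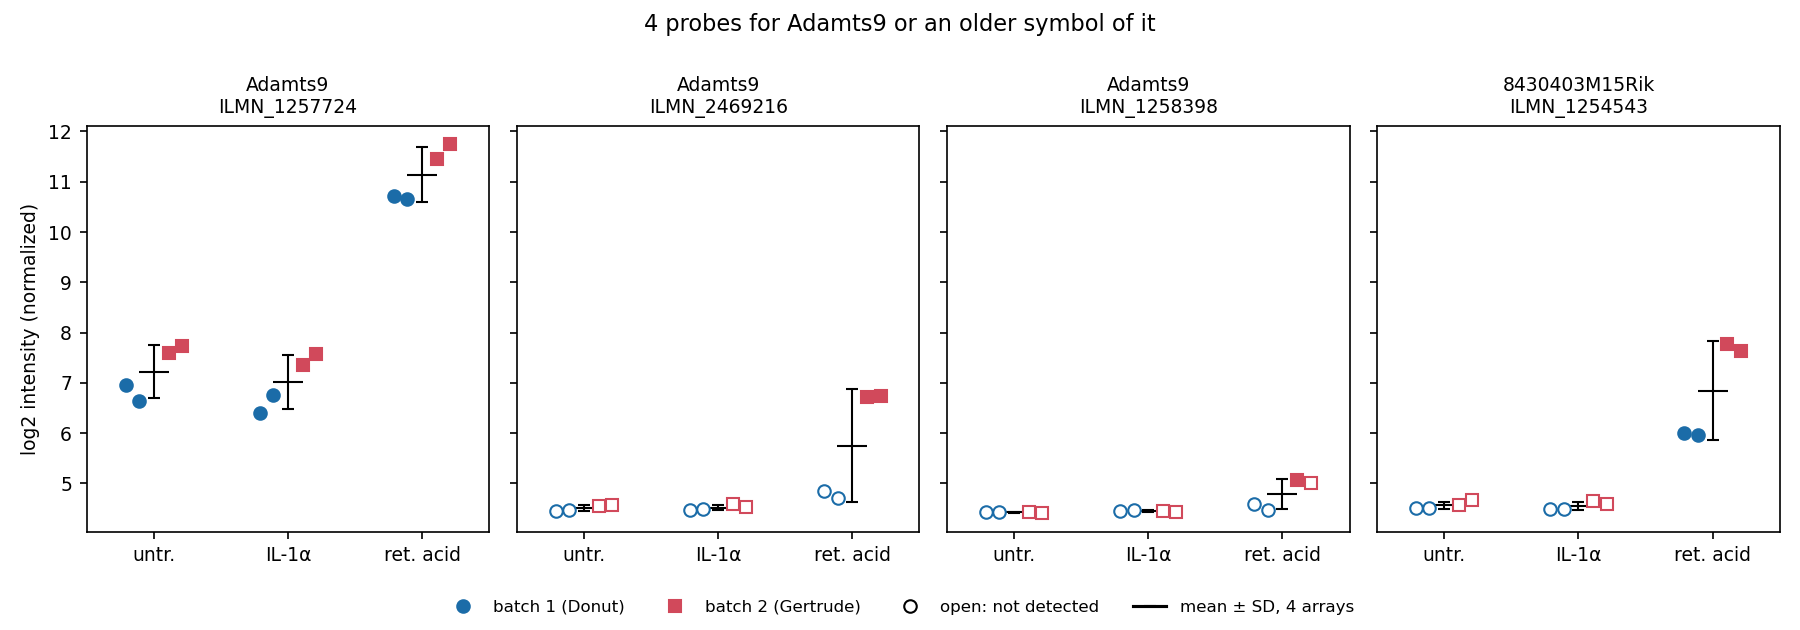
Log2 intensity on 12 arrays of the 3 Adamts9 probes and of the probe named 8430403M15Rik, with the mean and SD of 4 arrays in each treatment. Open points are undetected, and every detected point of the right-hand 3 panels is a retinoic acid array.

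Over the 12 arrays, centred within each batch, the profiles closest to Adamts9 were those of B230312L03Rik, Igfbp2 and 5930412G12Rik. Their root mean square differences from it were 0.12, 0.16 and 0.22 on the log2 scale, where the median over all kept probes was 1.92. Igfbp2 encodes a binding protein of insulin-like growth factors. The list comes from the distances alone.

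Adamts15 belongs to the clade of Adamts1, Adamts4 and Adamts8 and encodes a proteinase that cleaves versican and aggrecan. Its probe, ILMN_3161887, stood at 7.58 and 7.29 untreated in batch 1 and at 5.45 and 5.47 in batch 2. With IL-1α it stood at 6.31 and 6.78, and at 5.25 and 5.23. With retinoic acid it stood at 8.55 and 8.59, and at 7.21 and 7.27. Levels were lower in batch 2 in every treatment after normalization, although the deposited untreated intensities were closer, at 106.4 and 113 in batch 1 against 71.5 and 97 in batch 2. The background estimates of the arrays were 32.3 to 41.4 in batch 1 and 39.6 to 55.6 in batch 2.

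Retinoic acid raised Adamts15 over untreated by 1.46 (standard error 0.17, limma adjusted p = 1.75e-05), or 2.74-fold, with 1.13 in batch 1 and 1.78 in batch 2. Without regard to batch the 4 and 4 arrays overlapped (exact two-sided permutation test, p = 0.171). IL-1α lowered it by a log2 fold change of -0.56 (standard error 0.17, limma adjusted p = 0.0233), with -0.89 in batch 1 and -0.22 in batch 2. It was lower with IL-1α in 4 of 4 pairs, but the groups overlapped (exact two-sided permutation test, p = 0.457), and the call was lost without untreated batch 1 replicate 1, untreated batch 1 replicate 2 or IL-1α batch 1 replicate 1. The highest adjusted p among these was 0.102.

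Retinoic acid exceeded IL-1α for Adamts15 by 2.01 (standard error 0.17, limma adjusted p = 9.33e-07), a 4.03-fold difference. The 4 retinoic acid arrays, at 7.21 to 8.59, were above the 4 IL-1α arrays, at 5.23 to 6.78 (exact two-sided permutation test, p = 0.0286). The difference was 2.02 in batch 1 and 2.00 in batch 2. The closest profiles were those of 1110003O08Rik, Mrc2 and Id3, with root mean square differences of 0.15, 0.17 and 0.17, where the median over all kept probes was 0.91. Mrc2 encodes an endocytic collagen receptor and Id3 an inhibitor of helix-loop-helix transcription factors.

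Adamts1 encodes a proteinase first described as an inflammation-associated gene, with activity on versican and aggrecan. Its kept probe, ILMN_2761082, was undetected untreated in batch 1, at 4.56 and 4.75, and just detected in batch 2, at 5.12 and 5.08. With IL-1α it was undetected in batch 1, at 4.73 and 4.96, and detected in batch 2, at 5.78 and 5.34. With retinoic acid it was at 5.45, detected, and 5.08, undetected, in batch 1, and at 7.35 and 6.83 in batch 2. The retinoic acid arrays of batch 2 were above all others, while those of batch 1 were no higher than the IL-1α array of batch 2 at 5.78.

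Retinoic acid raised Adamts1 over untreated, with a fitted 1.30 (standard error 0.24, limma adjusted p = 0.00100), and over IL-1α, with a fitted 0.97 (standard error 0.24, limma adjusted p = 0.00784). With the untreated and IL-1α arrays of batch 1 below detection these are not exact sizes, and an offset of 50 gave 0.81 and 0.64. IL-1α against untreated gave 0.32, with a 95% interval of -0.20 to 0.85 (limma adjusted p = 0.343). The groups overlapped over both batches in the 2 retinoic acid comparisons (exact two-sided permutation test, p = 0.0857 and 0.171). Within batch 1 retinoic acid differed from untreated by 0.61, and within batch 2 by 1.99. The test of that difference passed (limma adjusted p = 0.0155), but no size can be given to it either.

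The other Adamts1 probes added little. ILMN_2664419 was detected on 1 array, with retinoic acid in batch 2, at 5.30, and ILMN_1230129 on 0 arrays. The profiles closest to the kept probe were those of Bcl2l11, Smg6 and Abcc3, with root mean square differences of 0.22, 0.22 and 0.24, against a median over all kept probes of 0.69. Bcl2l11 encodes the apoptosis activator Bim, Smg6 an endonuclease of nonsense-mediated decay and Abcc3 an organic anion transporter.

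Adamts4, one of the aggrecanases deleted in its catalytic part in all of these mice, was well detected. Its probe, ILMN_2644433, read 8.66 and 8.72 untreated in batch 1 and 8.85 and 9.29 in batch 2. With IL-1α it read 8.88 and 8.81, and 8.60 and 8.75. With retinoic acid it read 8.92 and 8.88, and 9.62 and 9.52. The 3 groups lay within about the same narrow range in batch 1, and in batch 2 the retinoic acid arrays were highest.

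Against untreated, Adamts4 gave 0.36 with retinoic acid (95% interval -0.00 to 0.72, limma adjusted p = 0.115) and -0.12 with IL-1α (95% interval -0.48 to 0.24, limma adjusted p = 0.631). Retinoic acid exceeded IL-1α by 0.48 (standard error 0.17, limma adjusted p = 0.0447), but the lowest retinoic acid array and the highest IL-1α array were both at 8.88 and just overlapped (exact two-sided permutation test, p = 0.0571). That call was kept on leaving out 5 of the 12 arrays in turn and lost on leaving out the other 7, with adjusted p up to 0.186. The difference was 0.05 in batch 1 and 0.90 in batch 2, and the test of this difference passed (limma adjusted p = 0.0287). The closest profiles were those of Rtn4, Fscn1 and Myef2, at root mean square differences of 0.088, 0.10 and 0.11, with a median over all kept probes of 0.39.

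**Figure D4:**
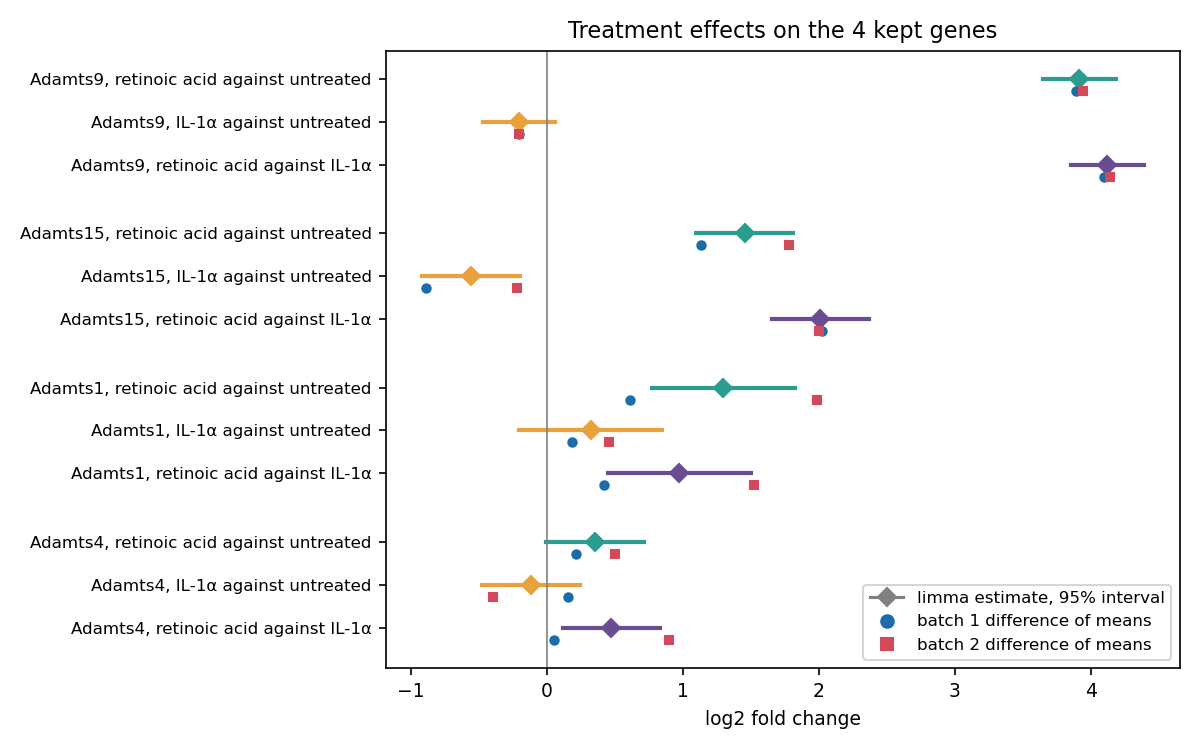
Log2 fold changes of the 4 kept genes in the 3 comparisons. Diamonds and bars are the limma estimates with 95% intervals, and circles and squares the differences of means within batch 1 and batch 2. For retinoic acid against untreated Adamts9 has 3.89 and 3.94 in the batches, and Adamts1 has 0.61 and 1.99.

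Between batches, Adamts1 and Adamts4 had an effect that differed in at least 1 of the 3 comparisons, 2 of 4 genes, where 11.7% of all genes did. For Adamts9 and Adamts15 the smallest adjusted p of these tests was 0.938 and 0.117. A missed threshold here does not show equal effects.

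Adamts5 encodes the main aggrecanase of mouse cartilage and carries the other deletion of these mice. Its probe, ILMN_2481087, read 4.81 and 4.87 untreated in batch 1 and 4.81 and 4.84 in batch 2. With IL-1α it read 4.82 and 4.94, and 4.91 and 5.08, and the last of these was its only detected value. With retinoic acid it read 5.05 and 5.19, and 4.98 and 5.02. The 4 retinoic acid arrays lay above the 4 untreated arrays (exact two-sided permutation test, p = 0.0286), yet all 8 were undetected, so that no fold can be given. Without the filter on detection this probe was called too, at a fitted 0.23 (limma adjusted p = 0.0315). A probe of the older symbol 9530092O11Rik, a RefSeq synonym of Adamts5, was undetected on 12 of 12 arrays, at 4.41 to 4.52.

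Adamts8, another enzyme of the Adamts15 clade, had 1 detected value on its brighter probe, ILMN_2737771, at 5.08 on a retinoic acid array of batch 2. That probe ranged from 4.65 to 5.33 over the 12 arrays, and ILMN_2458038 was undetected on all of them, at 4.52 to 4.72. Adamts20, the relative of Adamts9 that acts on versican in skin, was undetected on all arrays with both probes, ILMN_2680000 at 4.54 to 4.95 and ILMN_2598519 at 4.49 to 4.68. What lies under the background of these probes was not detectable.

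The other ADAMTS genes, procollagen processing enzymes among them, were counted for comparison. Of 12 such genes 7 were kept. Retinoic acid raised 0 and lowered 2 against untreated, where 18.6% and 18.1% of all genes were called higher and lower. IL-1α raised 1 and lowered 3, where 15.1% and 15% were. Retinoic acid against IL-1α called 3 higher and 2 lower, where 16.1% and 16.4% were.

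The substrates, inhibitors, convertases and binding partners of these enzymes were read from a list of 23 genes, of which 20 had a probe and 16 a kept probe. Retinoic acid raised 4 and lowered 9 of the 16 against untreated, where 18.6% of all genes were called higher and 18.1% lower. IL-1α raised 2 and lowered 7, where 15.1% of all genes were called higher and 15% lower. Retinoic acid against IL-1α called 2 higher and 6 lower, where 16.1% of all genes were called higher and 16.4% lower. The medians of the 16 were -0.57, -0.24 and -0.23.

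Aggrecan itself, Acan (ILMN_2639818), had log2 intensities of 13.13 to 13.47 untreated, 11.34 to 12.03 with IL-1α and 8.92 to 9.13 with retinoic acid. The 3 groups did not overlap. Acan fell by 4.22 with retinoic acid and by 1.56 with IL-1α against untreated (limma adjusted p = 6.44e-10 and 1.02e-05). The highest value on the normalized scale was 14.24, so that Acan untreated lay near the top of the scale. Vcan and Bcan, the substrates versican and brevican, had no kept probe, and Ncan had no probe.

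Hapln1, the cartilage link protein, fell with both treatments (limma adjusted p = 5.48e-10 with retinoic acid and 6.14e-06 with IL-1α), by 1.25 with IL-1α. It was undetected on both retinoic acid arrays of batch 1, where untreated was at least 7.90-fold higher, and in batch 2, where all arrays detected it, the log2 difference for retinoic acid was -3.32. Hapln3, a link protein of other tissues, had log2 fold changes of -0.69 in both comparisons (limma adjusted p = 0.0243 and 0.0299). In batch 1 it was undetected on replicate 1 with IL-1α, at 5.43, and with retinoic acid, at 5.27. These are therefore not exact sizes. All 7 kept cartilage markers were called lower with retinoic acid, where 18.1% of all genes were. With IL-1α 5 of 7 were called lower, where 15% of all genes were. The part of these markers in the changes of the ADAMTS genes was not tested.

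Among the inhibitors, Timp3 read 12.76 to 13.44 untreated, 12.32 to 13.17 with IL-1α and 11.34 to 12.01 with retinoic acid. It fell by 1.43 with retinoic acid (limma adjusted p = 3.71e-07) and by 0.36 with IL-1α (limma adjusted p = 0.0228). Timp1 rose with IL-1α by 0.63 (limma adjusted p = 0.00694) and gave 0.01 with retinoic acid (limma adjusted p = 0.961). Timp2 passed in none of the 3 comparisons. Timp4 was undetected on all retinoic acid arrays and on all arrays of batch 1, untreated included. In batch 2 it was detected untreated, at 6.33 and 6.10. The test of retinoic acid against untreated passed (limma adjusted p = 0.00277), but in batch 1 no fall can be seen and no size is given.

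Papln encodes papilin, a matrix protein related to the ADAMTS family that inhibits procollagen proteinases of it. Its probe was detected on the 4 retinoic acid arrays and on no other, at 5.48 to 5.80. Retinoic acid was at least 1.45-fold above untreated (limma adjusted p = 2.82e-06) and at least 1.32-fold above IL-1α (limma adjusted p = 3.48e-06). Papln passed the filter on detection only through the retinoic acid arrays, so that these calls could only be rises. It is counted among the listed genes called higher in both comparisons. Reck, a membrane-anchored metalloproteinase inhibitor, had -0.46 with retinoic acid and -0.63 with IL-1α, and both passed (limma adjusted p = 0.0210 and 0.00512).

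Among the convertases, Pcsk6 fell by 0.81 with retinoic acid and by 0.52 with IL-1α (limma adjusted p = 0.000186 and 0.00627). Pcsk7 rose by 0.48 with retinoic acid (limma adjusted p = 0.0196). Furin passed in none of the 3 comparisons.

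Fbln1 encodes fibulin-1, a matrix protein that binds ADAMTS-1 and acts as its cofactor. It read 7.36 to 9.37 untreated, 6.12 to 7.52 with IL-1α and 9.59 to 10.55 with retinoic acid. It rose by 1.72 with retinoic acid and fell by 1.55 with IL-1α (limma adjusted p = 3.53e-06 and 2.13e-05), the same directions as the calls of Adamts15. Retinoic acid exceeded IL-1α by 3.26 (limma adjusted p = 1.09e-08), with no overlap of the arrays.

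Lrp1, the endocytic receptor that clears ADAMTS-4 and ADAMTS-5, rose by 0.60 with retinoic acid and by 0.45 with IL-1α (limma adjusted p = 0.00289 and 0.0213). Sdc4, a cell surface proteoglycan that binds ADAMTS-5, fell by 0.73 with retinoic acid (limma adjusted p = 0.0141) and gave -0.55 with IL-1α (limma adjusted p = 0.0592). Fn1, fibronectin, fell by 0.98 with retinoic acid (limma adjusted p = 7.14e-05).

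**Figure D5:**
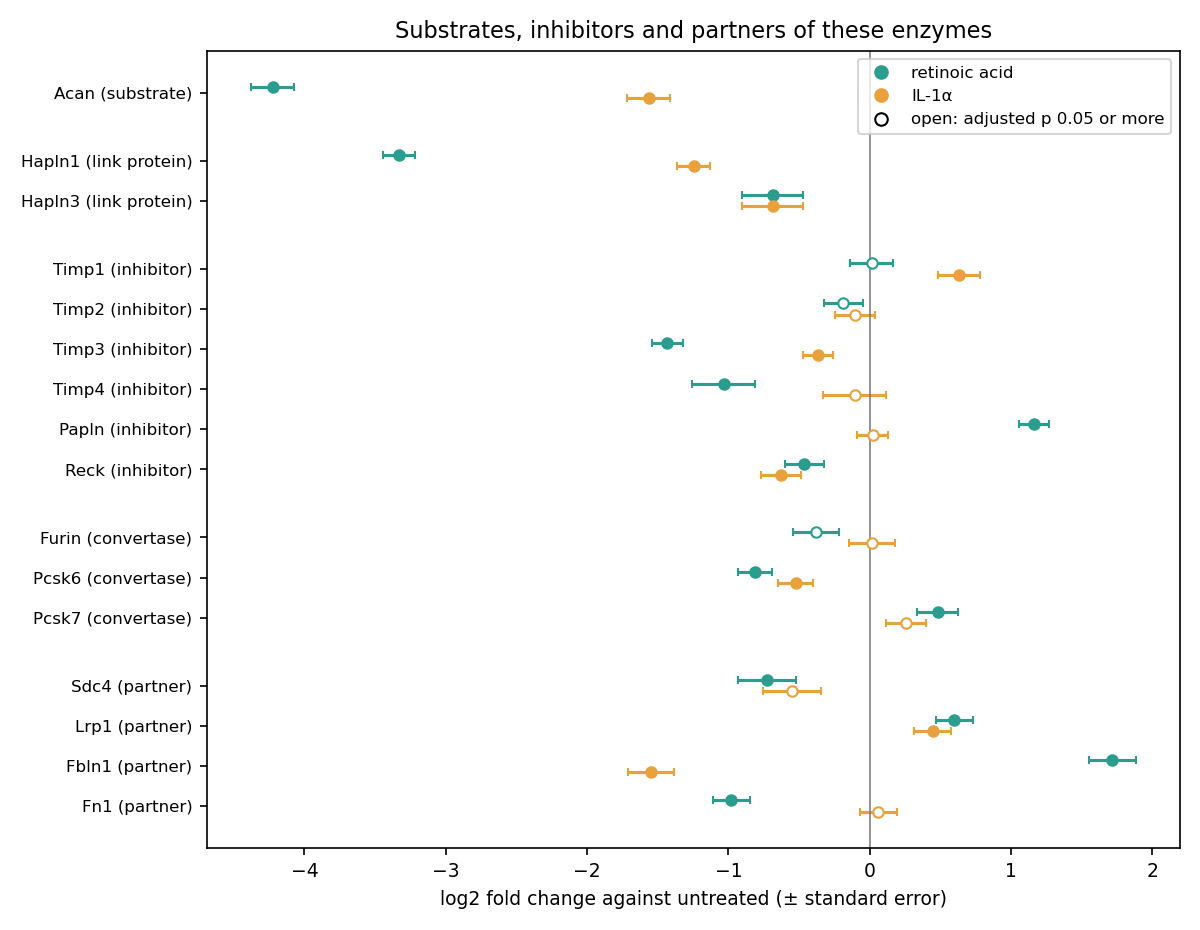
Log2 fold change against untreated, with its standard error, of the 16 kept genes among the substrates, link proteins, inhibitors, convertases and partners of these enzymes, for retinoic acid and IL-1α. Acan is furthest to the left at -4.22 with retinoic acid and Fbln1 furthest to the right at 1.72. The points of Hapln1, Hapln3, Timp4 and Papln rest in part on undetected arrays and are not exact sizes.

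Genes of other cell types were read beside these results. The summed level of 5 endothelial markers was 1901 to 2350 untreated, 922.5 to 1212 with IL-1α and 2082 to 2458 with retinoic acid. They gave 1 call higher and 0 lower for retinoic acid against untreated, 0 higher and 3 lower for IL-1α against untreated, and 3 higher and 0 lower for retinoic acid against IL-1α. Over all genes 18.6%, 15.1% and 16.1% were called higher in these comparisons, and 18.1%, 15% and 16.4% lower. For retinoic acid against untreated the median of the 5 endothelial markers was -0.03, and for IL-1α against untreated -0.96. The part of vessels in the Adamts15 calls was not tested. The 4 macrophage markers summed to 1539 to 2792 untreated, 3751 to 6592 with IL-1α and 2340 to 4510 with retinoic acid. They did not move together with IL-1α, where 2 were called higher than untreated and 1, Emr1, lower, against 15.1% and 15% of all genes. With retinoic acid 3 were called higher than untreated and 0 lower, against 18.6% and 18.1% of all genes. The 4 bone markers summed to 9649 to 11540 untreated, 2625 to 4892 with IL-1α and 2759 to 4274 with retinoic acid. Each treatment gave 0 calls higher and 3 lower against untreated. Over all genes 15% were called lower with IL-1α and 18.1% with retinoic acid. The other bone marker, Bglap, was called with neither treatment. With IL-1α Bglap gave -1.25 in batch 1 and 1.80 in batch 2. The 4 neutrophil markers summed to 8240 to 11300 untreated, 12700 to 14930 with IL-1α and 4699 to 13260 with retinoic acid. With IL-1α 0 of the 4 were called higher than untreated and 0 lower, against 15.1% and 15% of all genes. With retinoic acid 0 were called higher and 2, Ngp and Camp, lower, against 18.6% and 18.1%. S100a8, the brightest of the 4, gave -1.11 with retinoic acid in batch 1 and 0.74 in batch 2. S100a9 was likewise lower in batch 1 and higher in batch 2, while Ngp and Camp were lower in both. The 2 kept fat markers summed to 934.9 to 1414 untreated, 209.4 to 476.7 with IL-1α and 261.1 to 326.4 with retinoic acid. The 2 hypertrophic markers summed to 3298 to 10090, 1192 to 2796 and 1020 to 2246 in the same order, and the synovial marker Prg4 read 12890 to 16160, 13160 to 14770 and 9225 to 9914. Among all marker lists, Matn3 of cartilage and Plin1 of fat had no kept probe, and the brightest probe of each was detected on 0 arrays. The part of these cells in the levels of Adamts9 was not tested.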

How the data were processed

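RNA of 12 explant cultures was measured on Illumina bead arrays, which the methods name as Sentrix Mouse 1.1. The authors deposited non-normalized linear intensity values and, under a p-value heading, detection scores between 0 and 1 that rise with intensity, that is a fraction from which the detection p was taken as 1 minus the score. The software that summarised the beads and a genome build are not given in the sources used here. With limma 3.58.1 in R 4.3.3, neqc corrected background, applied quantile normalization and added an offset of 16 before log2. Kept probes had a detection p under 0.05 on at least 4 of 12 arrays (28432 removed), and a gene was read from its kept probe of highest mean. The model (lmFit, eBayes) held treatment and a 4-level factor for batch and replicate, as the methods state, and a further model held treatment by batch. Adjusted p-values use the Benjamini-Hochberg method over kept probes at 0.05. The functions were tested on simulated data. The number of arrays, 4 per treatment, limits the precision. Alternatives covered background, normalization, offset, filters, block, batch and each array left out. The genes named were all members, the pathway list and the 3 closest profiles of each called member, besides treatment check and marker genes. Probes under 2 older symbols were added after their values were seen. Members and lists were chosen with earlier results of these data known. The replicate numbers were checked for pairing in both batches, and arrays of equal number did not all deviate together (correlations -0.108 to 0.391), so that the block follows the methods alone. All 12 columns matched 1 sample each, and 0 value columns were left without one.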

Additional observations from a re-analysis of the deposited data

Results flagged for a closer look

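Effects that differed between the batches, by a limma test of treatment by batch at an adjusted p under 0.05, were found for 2 of the 4 genes with a kept probe, where 11.7% of all genes had one. For Adamts1 the effect of retinoic acid was larger in batch 2 than in batch 1 by a fitted 1.377 against untreated (adjusted p = 0.0155) and by 1.107 against IL-1α (adjusted p = 0.0260). For Adamts4 retinoic acid against IL-1α was larger in batch 2 by 0.8437 (adjusted p = 0.0287). Batch and mouse line are the same division of the arrays.

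The probe of 8430403M15Rik had fitted differences of 1.606 against untreated and 1.584 against IL-1α, both larger in batch 2. It was undetected on the untreated and IL-1α arrays, and the kept Adamts1 probe was undetected on those arrays of batch 1, so that these fitted values are no sizes.

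Among the inhibitors, Timp1 gave -0.7139 for retinoic acid against IL-1α, and Timp4 gave -1.224 against untreated and -1.013 against IL-1α, all more negative in batch 2. Timp4 was undetected on all retinoic acid arrays and on all arrays of batch 1, so that its fitted values are no sizes. By Dixon's test at 95%, no array was flagged within its treatment in any of the 87 groups of 4 arrays examined. Each group held 2 arrays of each batch, and where the batches separate, as for Adamts15, this test can hardly flag an array. The nominal rate of about 1 in 20 does not hold there, and no conclusion is drawn from it.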

How the results depend on the processing

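The calls of Adamts9 with retinoic acid held under all 11 other settings and with each of the 12 arrays left out, at 3.63 to 4.13 on the log2 scale against untreated and 3.80 to 4.33 against IL-1α. Adamts15 lowered by IL-1α, 1 member gene as reported, became 0 with one median in place of quantile normalization, with no filter on detection, with neither block nor batch and in batch 2 alone, and 0 to 1 with an array left out. Retinoic acid against IL-1α, 4 member genes as reported, gave 2 with no filter, 2 with neither block nor batch and 2 in batch 1 alone. Against untreated, 3 became 1 with neither block nor batch, when the calls of Adamts15 and Adamts1 were lost, and 4 with no filter, when the undetected Adamts5 probe was called too. The 2 genes whose effect differed between batches became 1 with no filter, 1 with detection on all 12 arrays and 1 with a detection p under 0.01, and 0 to 2 with an array left out. It was 0 without retinoic acid batch 1 replicate 2 and without retinoic acid batch 2 replicate 1. Adamts4 with IL-1α, -0.12 as reported and not called, turned to 0.17 in batch 1 alone and spanned -0.25 to 0.00129 with an array left out.

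Of the pathway genes, 13 called for retinoic acid against untreated became 4 with neither block nor batch, 9 for IL-1α became 1 with neither and 5 in batch 2 alone, and 8 for retinoic acid against IL-1α became 5 with detection on all 12 arrays and 4 with neither block nor batch. Without the replicate block but with batch, the member genes called were 3, 1 and 4 as reported, and pairing by number rests on the methods alone. Adamts1 had no kept probe with detection on all 12 arrays, with a detection p under 0.01 and in batch 1 alone. Few arrays, and signals near the background, limit what could be seen of Adamts5, Adamts8 and Adamts20. The causes of these changes were not tested.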
